A study of Sus scrofa with 24 samples.

Results

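A set of 10 genes of muscle protein breakdown was followed in 24 pig fetuses, in a back muscle, the longissimus dorsi (LDM). They were the F-box ligases FBXO32 and FBXO40, the muscle RING finger (MuRF) ligases TRIM63, TRIM54 and TRIM55, the ligases CBLB, XIAP and NEDD4, and the transcription factors FOXO1 and FOXO3. They were chosen by gene symbol, and 9 of the 10 had probe sets on the array, out of 13750 genes named there. These 9 genes had 26 of the 47845 probe sets. No probe set carried the symbol TRIM54 (MuRF3) or an older name of it, so it has no value here.

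The fetuses were F2 animals of a German Landrace and Pietrain cross, sampled at 63 dpc (days post conception), and the RNA of each was read on 1 Porcine Snowball array from Affymetrix. The study asked how growth-restricted fetuses differ from fetuses of appropriate weight. The study itself lists the fetuses by weight group, sex and dam under the same numbers. Groups were taken here only from the deposited labels, which carry none of these, so that listing was not used, no groups were compared, and the fetuses are called by their numbers. Every spread, correlation and count of calls below therefore pools the weight groups, sexes and litters and includes any difference between them. By the study's methods the fetuses came from several dams and 1 sire and were picked as sib pairs of discordant weight, so the spreads need not hold for unselected fetuses, and sibs are not independent, which makes the p-values below too small. The labels name no batch.

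Ubiquitin ligases attach ubiquitin to chosen proteins, which the proteasome then degrades. In wasting adult muscle of rodents and humans, FBXO32 (atrogin-1, MAFbx) and TRIM63 (MuRF1) are the classic induced ligases. FOXO factors drive both genes when insulin and IGF signalling through AKT is low, because AKT phosphorylates FOXO proteins and keeps them out of the nucleus. That control acts on the protein, and an array reads only the mRNA.

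Values are log2 signals, so a difference of 1 is a doubling. Signals of different probe sets are not comparable as amounts of mRNA, and each is set only against itself in other fetuses. A probe set passed the filter when its signal was above the median of its own array in at least 20 of 24 arrays. The array medians lay between 6.61 and 6.73. In all, 12 of the 26 probe sets passed, and they covered 7 genes (FBXO32, TRIM63, TRIM55, CBLB, XIAP, FOXO1 and FOXO3). Where several probe sets passed, the one with the highest median stood for the gene. The filter is not a detection call, and FBXO40 and NEDD4, which did not pass, cannot be called unexpressed from it. Of 12 skeletal muscle markers 9 were on the array, and all 9 passed, with median signals between 11.45 and 13.48. The myosins MYH3 and MYH8 and the factor MYOG had no named probe set. In whole muscle, fewer cells of a type and less RNA per cell cannot be told apart.

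FBXO32, the substrate receptor of an SCF ligase, stood out through 1 fetus in its brightest probe set. Its representative probe set (SNOWBALL_005602_st) ran from 7.76 in fetus 297 over a median of 8.33 to 9.42 in fetus 274. The next highest fetus, 303, was at 8.78, so fetus 274 lay alone above the others. The span, taken as the 90th minus the 10th percentile, was 0.48, a 1.4-fold range, and 65.4% of the 9710 genes that passed the filter had a narrower one. The median span of those genes was 0.42. The dimmest FBXO32 probe set was also high in fetus 274, at 6.67 against a median of 5.96, though highest in fetus 283 (6.74). In the middle one, fetus 274 was low instead, at 6.4 against a median of 6.62. Fetus 303, second in the representative, was lowest in that middle probe set, at 6.23. Over all fetuses the representative correlated with the dimmest at Pearson r = 0.51 and with the middle one at r = -0.32, so the 3 FBXO32 probe sets did not order the fetuses alike.

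FBXO40, a muscle-restricted F-box protein that in mice targets the insulin receptor substrate IRS1, gave 3 dim probe sets. The brightest ran from 5.95 in fetus 324 over a median of 6.34 to 6.83 in fetus 272. It was above the array median in 1 of the 24 fetuses, and the other two probe sets in none. Their correlations with each other were between -0.33 and 0.10. With no filter, 0 of 13749 genes (0.0%) were related to FBXO40 by the limma test described below, and 883 had an unadjusted p under 0.05.

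TRIM63, which ubiquitinates thick filament proteins of the sarcomere, varied more than most genes. Its representative probe set (SNOWBALL_036067_st) ran from 6.95 in fetus 376 over a median of 7.45 to 8.03 in fetus 327. Fetuses 327, 324 (7.99) and 272 (7.84) made up the top, and fetus 303 (7.10) followed 376 at the bottom. Its span of 0.63 (1.55-fold) was wider than that of 84.6% of genes. The second TRIM63 probe set, above the array median in 17 of 24 fetuses, was also highest in 327, at 7.36, and the 2 probe sets correlated at r = 0.58.

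TRIM55 (MuRF2), which binds titin in the sarcomere, had 2 probe sets that passed and ordered the fetuses in nearly the same way (r = 0.82). The representative (SNOWBALL_005986_st) ran from 9.38 in fetus 340 over a median of 9.78 to 10.06 in fetus 360. The second ran from 8.21, also in 340, over 8.66 to 9.59 in fetus 338. Fetus 340 was thus lowest in both. The span was 0.44 in the representative, wider than in 56.1% of genes, and 0.63 in the mean of both probe sets.

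CBLB and XIAP each had a span of 0.80 (1.74-fold) in the representative probe set, wider than in 93.2% of genes. In the mean of the probe sets that passed, CBLB was at 0.59, below the 0.63 of TRIM63 and of TRIM55. CBLB, a RING ligase that targets IRS1 in unloaded rodent muscle, ran from 8.38 in fetus 313 over a median of 8.99 to 9.64 in fetus 338 (SNOWBALL_037353_st). XIAP, an inhibitor of caspases that carries a RING domain, ran from 6.88 in fetuses 283 and 307 over 7.32 to 8.03 in fetus 338 (SNOWBALL_001899_st). Fetus 338 was highest and 274 was among the higher ones in both. All 3 XIAP probe sets were highest in 338 and lowest in 283, with correlations between 0.55 and 0.83, although 2 of them did not pass the filter. The 2 CBLB probe sets that passed correlated at r = 0.46 and differed most in fetus 384, which was lowest in the second (6.46, median 7.21) and above the median in the first (9.13). The mean of all 3 CBLB probe sets, the third of them dim, had a span of 0.40.

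NEDD4, the founding HECT ligase of its family, gave 3 dim probe sets. The brightest ran from 5.49 in fetus 272 over a median of 6.25 to 7.01 in fetuses 274 and 320, and was above the array median in 3 fetuses. Its span of 1.06 was the widest among the 26 probe sets. It correlated with the second NEDD4 probe set at r = 0.67 and with the third at r = 0.44.

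The FOXO factors moved least. FOXO1 ran from 8.52 in fetus 338 over a median of 8.81 to 9.01 in fetus 384 (SNOWBALL_013809_s_st), and its span of 0.19 (1.14-fold) was wider than that of only 0.5% of genes. FOXO3 ran from 9.55, again in fetus 338, over 9.82 to 10.06 in fetus 303 (SNOWBALL_002455_s_st), with a span of 0.34 (1.27-fold), wider than in 23.9% of genes. In the representative probe sets, fetus 338 was thus lowest in both FOXO genes while it was highest in CBLB and XIAP. In the second FOXO3 probe set that passed, fetus 376 was lowest (8.97), and 338 was at 9.15 against a median of 9.25. In the third FOXO1 probe set, 338 was at the median (8.51). The first 2 FOXO1 probe sets correlated at r = 0.80, but the third, which also passed, did not follow them (r = -0.09 and -0.01). The 2 FOXO3 probe sets that passed correlated at r = 0.46.

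**Figure D1:**
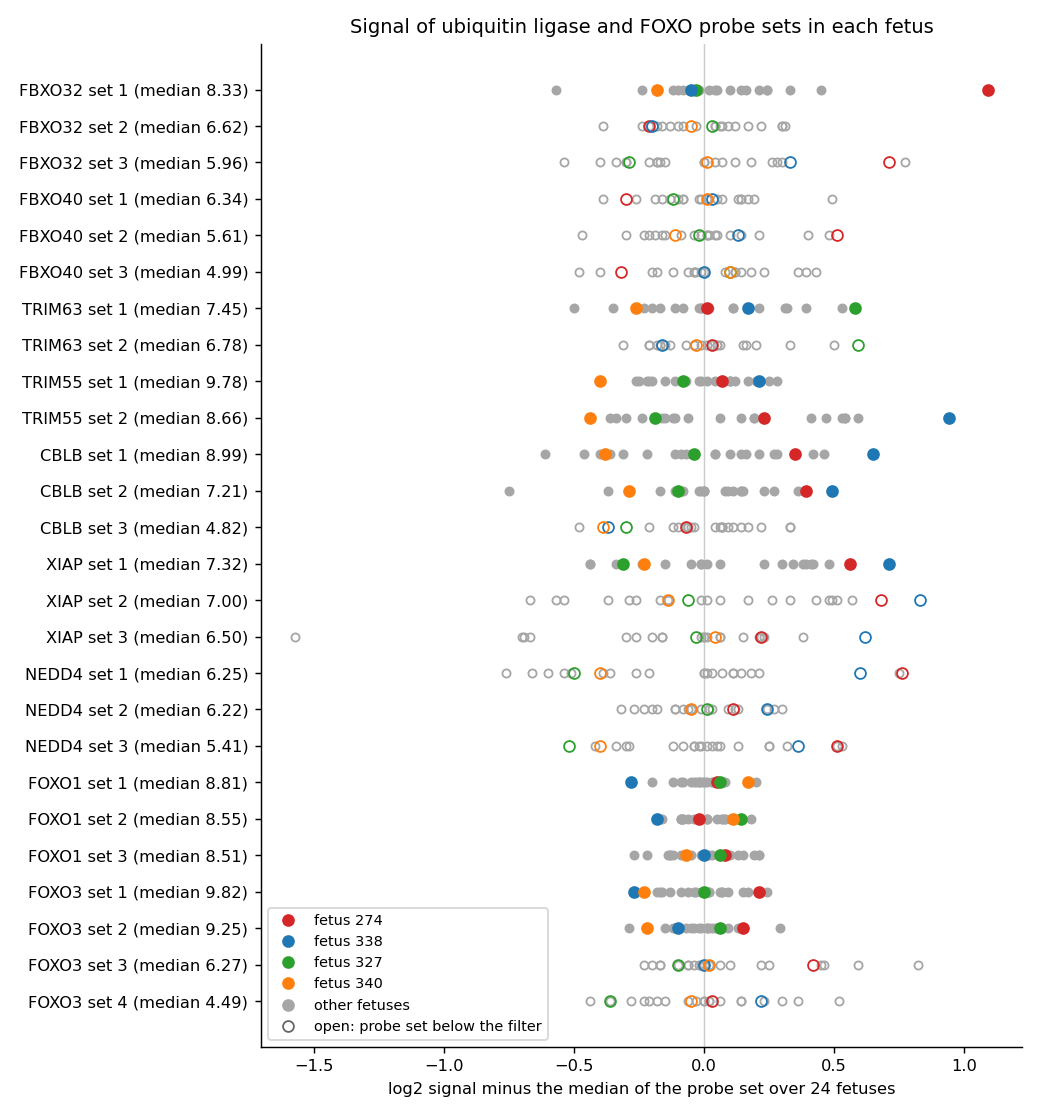
Each row is 1 probe set of a gene and each point 1 of 24 fetuses, placed by its log2 signal minus the median of the probe set (horizontal axis), with open points for probe sets that did not pass the filter. Fetus 274 lies 1.09 above the median in the first FBXO32 row, and fetus 338 lies at the upper end for CBLB and XIAP and at the lower end for the first FOXO1 and FOXO3 rows.

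Whether the genes rose and fell together was tested by a limma fit of every gene on the signal of each of the 7, with Benjamini-Hochberg adjustment over the 9709 other genes. A pair was called when both fits gave an adjusted p under 0.05. Of 21 pairs 3 were called, and they joined TRIM55, CBLB and XIAP. The share of all genes called by the same fits was 34.0% for TRIM55, 55.5% for CBLB and 52.6% for XIAP, so a call with one of these 3 was common across the array. Before adjustment, 7 of the 21 pairs had a permutation p under 0.05. Adjustment over all genes leaves moderate correlations uncalled at this number of fetuses, so a pair that was not called may still be correlated.

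CBLB and XIAP followed each other most closely, with r = 0.875 (95% interval 0.73 to 0.94 by the Fisher transformation). Spearman's rho was 0.858, the 2-sided permutation p was 1e-05, the smallest that 100000 resamples can give, and the larger adjusted p from limma was 5.69e-08. Without the 2 fetuses farthest from the CBLB median, 313 and 338, r was 0.867. TRIM55 correlated with XIAP at r = 0.681 (0.38 to 0.85), rho = 0.672, permutation p = 0.00027, limma adjusted p = 0.000978, and r = 0.685 without fetuses 340 and 360. TRIM55 correlated with CBLB at r = 0.673 (0.37 to 0.85), rho = 0.684, permutation p = 0.00033, limma adjusted p = 0.000951, and r = 0.606 without the same fetuses. The second TRIM55 probe set gave higher values still, r = 0.862 with CBLB and 0.851 with XIAP. The second CBLB probe set gave lower ones, r = 0.393 with XIAP and 0.292 with TRIM55. NEDD4 lay close to the same genes, with r = 0.789 between its brightest probe set and CBLB and 0.799 with XIAP, and with no filter 33.8% of 13749 genes were called with it.

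The 2 classic atrophy ligases were not called as a pair. FBXO32 and TRIM63 correlated at r = 0.102 (-0.31 to 0.49), rho = 0.155, with a permutation p of 0.636 and a limma adjusted p of 0.886, and at r = 0.057 without fetuses 274 and 297. The interval leaves room for a moderate correlation of either sign. Fetus 274, far above the rest in FBXO32, was at 7.46 in TRIM63, next to the median of 7.45. Fetus 303, second in FBXO32, was the second lowest in TRIM63, and fetus 376 was low in both.

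In the representative probe sets, FBXO32 came closest to TRIM55 among these genes (r = 0.474, 0.09 to 0.74, rho = 0.59, permutation p = 0.0159). That pair passed in the fit on TRIM55 (limma adjusted p = 0.0342) and not in the fit on FBXO32 (0.27), so it was not called. The second TRIM55 probe set, which also passed the filter, gave r = 0.295 with FBXO32. With the mean of the probe sets that passed, FBXO32 was at r = 0.369 with TRIM55, below 0.44 with FOXO3 and 0.415 with XIAP. With XIAP, FBXO32 gave r = 0.415 (0.01 to 0.70), with limma adjusted p values of 0.0469 and 0.302. The representative probe set of TRIM63 had no such near miss, its correlations with TRIM55, CBLB and XIAP being 0.202, -0.167 and -0.233. The second TRIM63 probe set, which did not pass the filter, gave -0.339, -0.466 and -0.528 with the same 3 genes.

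Neither FOXO factor was called with a ligase it is known to induce. FBXO32 correlated with FOXO1 at r = 0.011 (-0.39 to 0.41; limma adjusted p = 0.986) and with FOXO3 at r = 0.380 (-0.03 to 0.68, permutation p = 0.0666, limma adjusted p = 0.396). TRIM63 correlated with FOXO1 at r = -0.168 (-0.54 to 0.25) and with FOXO3 at r = -0.059 (-0.45 to 0.35). The sign of the latter was not stable, with r = 0.407 for the second FOXO3 probe set that passed, 0.195 for the mean of the probe sets and 0.061 with arrays centred on their median, and the pair was not called under the last 2. FOXO1 and FOXO3 correlated at r = 0.237 (-0.18 to 0.58; limma adjusted p = 0.597), and this value turned to -0.189 without fetuses 311 and 338. FOXO1 leaned against CBLB (r = -0.414) and XIAP (r = -0.430), with limma adjusted p values of 0.119 and 0.109. Without fetuses 376 and 384 both of these pairs were called, at r = -0.568 (limma adjusted p = 0.0318) and r = -0.539 (0.0486). Without 313 and 338, in contrast, the r of CBLB and FOXO1 was -0.188.

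**Figure D2:**
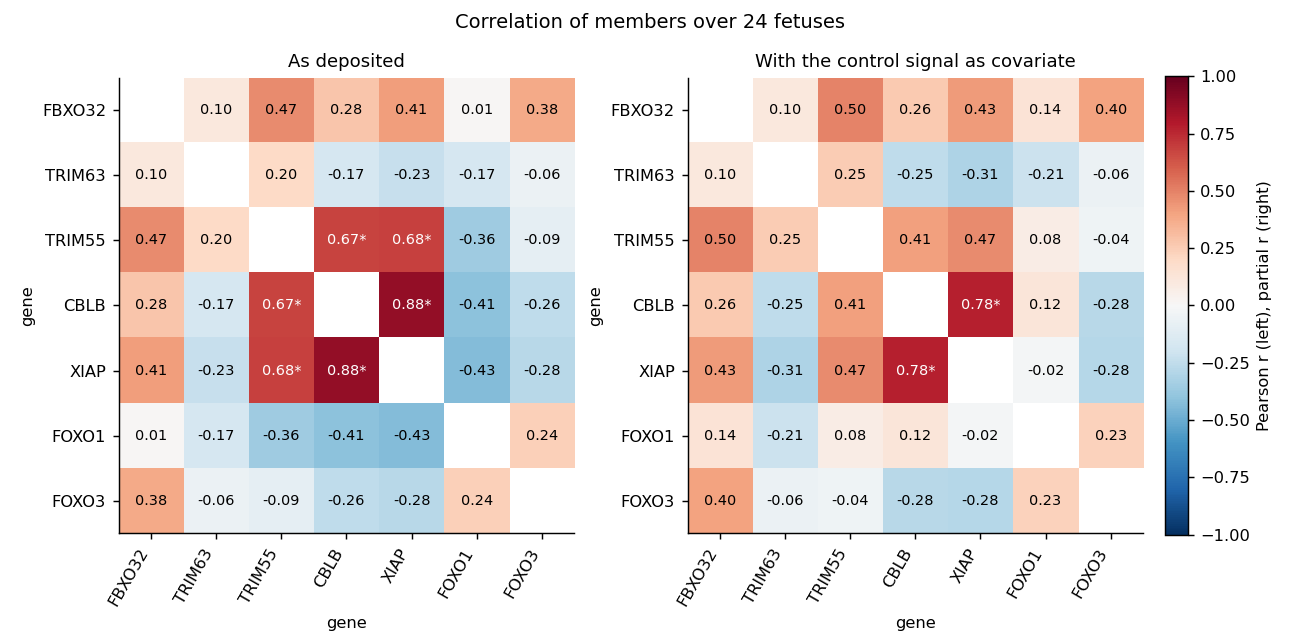
Each cell gives the correlation of 2 genes over 24 fetuses, from -1 (blue) to 1 (red), as deposited on the left and as a partial correlation given the background control signal on the right, with an asterisk where the pair was called. The block of TRIM55, CBLB and XIAP holds all 3 called pairs on the left, and CBLB with XIAP is the 1 pair called on the right.

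**Figure D3:**
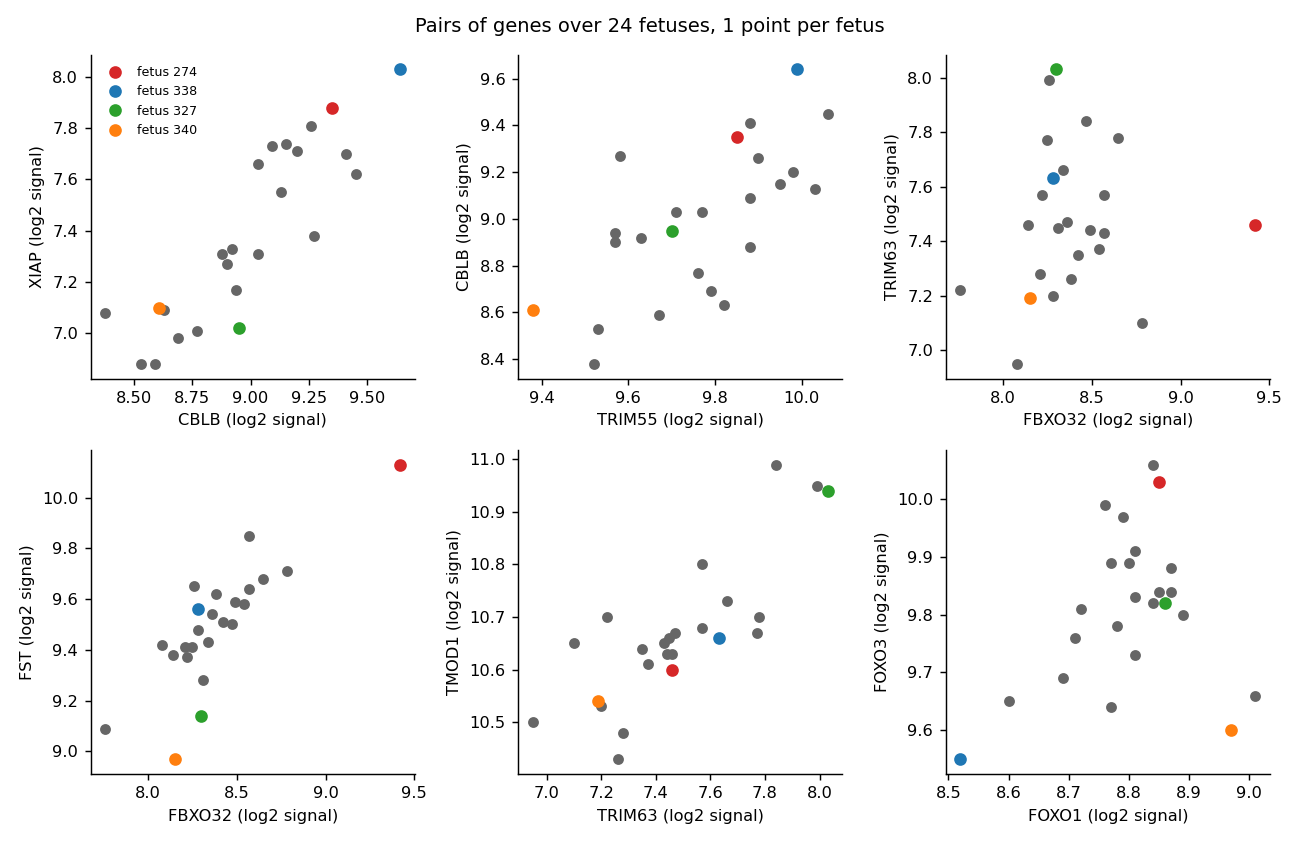
The panels plot the log2 signals of 2 genes against each other, 1 point per fetus, with 4 fetuses in colour. CBLB and XIAP rise together (r = 0.875), FBXO32 and TRIM63 show little shared order (r = 0.102), and fetus 274 sits at the far upper end of FBXO32 with FST.

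Over the pooled weight groups, the shared movement of TRIM55, CBLB and XIAP went along with the background signal of the arrays. Whether that movement also followed weight group was not tested. The array carries background control probe sets that match no transcript, graded by the number of G or C bases, and the mean of the 39 with 13 or more G or C ran from 7.30 in fetus 338 over 7.60 to 7.94 in fetus 313. Across all genes, 43.6% were related to this mean (limma, Benjamini-Hochberg), and it correlated at r = 0.767 with the first principal component, which held 39.7% of the variance. Of the 7 genes 4 were related to it.

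CBLB fell by 1.67 ± 0.31 (SE) per unit of control signal (r = -0.731, rho = -0.663, permutation p = 4e-05, limma adjusted p = 0.000188), with r = -0.569 without the 2 farthest fetuses. XIAP gave r = -0.640 (limma adjusted p = 0.00147) and TRIM55 r = -0.623 (0.00493). FOXO1 rose with the controls, by 0.48 ± 0.15 per unit (r = 0.651, limma adjusted p = 0.0141), and lost the call without fetus 338 (r = 0.524, 0.105) or as the mean of its 3 probe sets (r = 0.374, 0.227). The third FOXO1 probe set ran the other way, at r = -0.355. FBXO32, TRIM63 and FOXO3 gave r = -0.140, -0.009 and 0.094, with limma adjusted p values of 0.55, 0.972 and 0.732. Fetus 338 thus had the lowest control signal and, in the representative probe sets, the highest CBLB and XIAP and the lowest FOXO1. Fetus 313 had the highest control signal and was lowest in the representative probe set of CBLB.

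With the control signal as a covariate, CBLB and XIAP remained called, at a partial r of 0.776 (limma adjusted p = 0.000134). TRIM55 with CBLB (0.408, limma adjusted p = 0.215) and TRIM55 with XIAP (0.47, 0.118) were not. The share of all genes called fell from 34.0% to 4.17% for TRIM55, from 55.5% to 35.8% for CBLB and from 52.6% to 31.2% for XIAP. The span of CBLB fell from 0.80 to 0.51 once the controls were regressed out, and that of XIAP to 0.69. The median span of all genes fell as well, from 0.42 to 0.36. CBLB was then wider than 82.7% of genes and XIAP wider than 95.5%, where both had been wider than 93.2%. CBLB and XIAP, which are among the genes behind the first component, followed it more closely than the controls did, at r = -0.952 and -0.918. What links the controls to the component, and the part of weight group, sex and litter in these relations, was not tested.

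**Figure D4:**
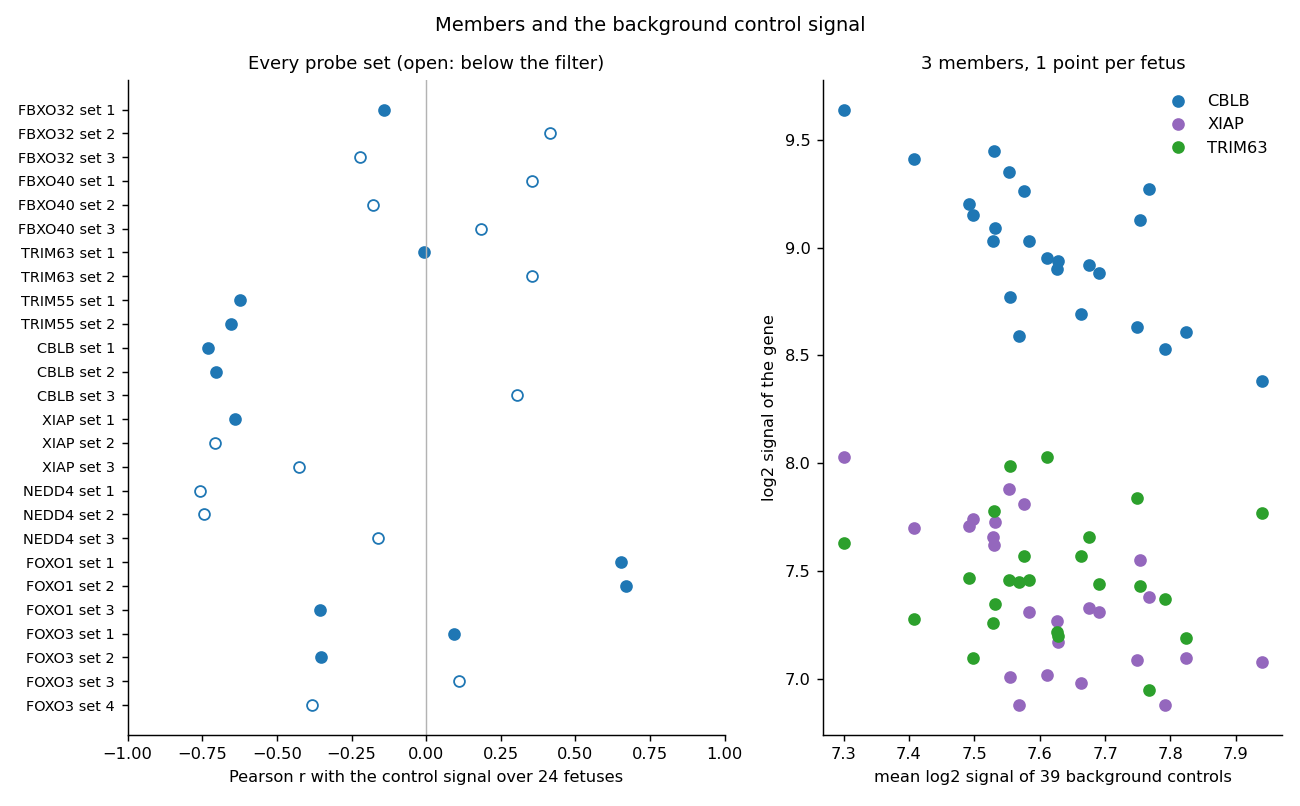
On the left, each point is the Pearson r over 24 fetuses between 1 probe set and the mean of 39 background controls, open where the probe set did not pass the filter. On the right, CBLB, XIAP and TRIM63 (log2 signal) are plotted against the control mean (log2 signal), 1 point per fetus, and CBLB falls along it (r = -0.731) while TRIM63 shows no slope (r = -0.009).

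The genes nearest to each of the 7 were taken as the 3 of highest and the 3 of lowest r over the 24 fetuses. FBXO32 was nearest to FST (follistatin, a secreted antagonist of myostatin and activins), at r = 0.824, rho = 0.807 and a limma adjusted p of 0.00458. FST was the only gene called with FBXO32, 0.0103% of those tested. FST ran from 8.97 in fetus 340 over 9.51 to 10.13 in fetus 274, which was thus highest in both genes. Without fetus 274, r was 0.739 and the limma adjusted p 0.248, and without 274 and 297 r was 0.679. MYLIP, a ligase for lipoprotein receptors, and GPRASP2 came next at r = 0.796 and 0.771, and both were also highest in 274. RTN4RL2, CCL11 (the chemokine eotaxin) and NHS lay at the other end, at -0.753, -0.721 and -0.704, each lowest in 274. None of these 5 was called, and their r without fetuses 274 and 297 was between 0.378 and 0.524 in size.

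TRIM63 was called with 37 genes (0.381%), all of them positively. The nearest were HABP4 (an RNA-binding protein, r = 0.832, limma adjusted p = 0.026), TMOD1 (tropomodulin, which caps actin thin filaments, r = 0.812, 0.0277) and TMEM183A (r = 0.810, 0.0315). TMOD1 ran from 10.43 in fetus 312 over 10.66 to 10.99 in fetus 272. HABP4 was highest in 327 (9.54) and lowest in 376 (8.87), as TRIM63 was. These correlations were 0.703 to 0.719 without fetuses 324 and 327. Without 376 and 384 they were 0.797 to 0.847, but no gene that passed the filter was then called with TRIM63 (788 had an unadjusted p under 0.05), and with ranks in place of signals none was either (944). The lowest were KHK (ketohexokinase), GPR176 and LOC100518442, at -0.616 to -0.608, none of them called.

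Around TRIM55 stood ATP1B4, a muscle member of the Na,K-ATPase beta family (r = 0.907), PDK1 (0.897) and the chromatin factor EPC1 (0.895), and opposite it KCTD17 (-0.821), LOC100514860 (-0.813) and CLDN5, a tight junction protein of endothelium (-0.807). Around CBLB stood UPF3B, a factor of nonsense-mediated mRNA decay (0.959), EPC2 (0.953) and KIAA2026 (0.952), and opposite it ADPRHL2 (-0.907), the ligase HECTD3 (-0.899) and the polycomb protein PHC2 (-0.873). XIAP had the histone deubiquitinase MYSM1 (0.943), the splicing factor RNPC3 (0.941) and the Hippo kinase LATS1 (0.941) nearest to it, and PRDM15 (-0.876), the deubiquitinase USP2 (-0.855) and PENK (-0.846) opposite. All of these genes were called, within the wide shares already given for the 3.

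FOXO1 was called with 740 genes (7.62%), 259 of them positively (2.67%) and 481 negatively (4.95%). FBF1 (r = 0.847, limma adjusted p = 0.0224), ACBD4 (0.798) and the forkhead gene FOXC2 (0.756) were nearest, and PREPL (-0.764), TARDBP (the RNA-binding protein TDP-43, -0.752) and TMEM33 (-0.750) opposite. FBF1, ACBD4 and FOXC2 were lowest and PREPL, TARDBP and TMEM33 highest in fetus 338. These calls rested on few fetuses. Without 338 no gene was called with FOXO1 (1332 had an unadjusted p under 0.05), without 274 there were 1118 (11.5%) and without 376 and 384 there were 2566 (26.4%). The mean of the 3 FOXO1 probe sets, ranks and the control covariate each left 0 called genes (1553, 1376 and 679 with an unadjusted p under 0.05).

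FOXO3 was called with no gene (0.0% of 9709, limma with Benjamini-Hochberg), while 1582 had an unadjusted p under 0.05. PPP4R1L (r = 0.761, limma adjusted p = 0.0657), the polycomb protein PCGF2 (0.741) and PPFIBP2 (0.735) came nearest, and all 3 were lowest in fetus 338. MYOZ2, a Z-disc protein that binds calcineurin, was at the other end at -0.628 and highest in 338, with RPS6 (-0.614) and SLC13A4 (-0.605). When each array was centred on its median, 243 genes (2.5%) were called with FOXO3, 236 of them positively.

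The pathway around the 10 genes was followed through 7 lists that held 136 genes past the filter. With FBXO32, TRIM63 and FOXO3 none of the 136 was called, while 20, 26 and 22 had an unadjusted limma p under 0.05. Among all 9709 genes tested, 1391, 1251 and 1582 had such a p. With FOXO1 15 were called, with TRIM55 56 (41.2%), with CBLB 90 (66.2%) and with XIAP 78 (57.4%). These stand beside 7.62%, 34.0%, 55.5% and 52.6% of all genes.

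No partner of the SCF complex was called with FBXO32. The adaptor SKP1 and the scaffold CUL1 both gave r = 0.100 with it, and the RING protein RBX1 gave -0.348 (-0.745 without fetuses 274 and 297). Among its known substrates, MYOD1, the myogenic factor, gave r = -0.013 and the translation factor EIF3F r = 0.003, and neither was called. EIF3F correlated with TRIM63 at r = 0.666 and missed the call (limma adjusted p = 0.0616), but it was called with the control signal as covariate.

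The list of FOXO targets and cofactors had the highest median correlation with FBXO32 of the 7 lists, 0.36 over 24 genes, beside -0.0 over all genes. Of these 24, 9 had an unadjusted limma p under 0.05 and 0 were called. Among all 9709 genes tested with FBXO32, 1391 had such a p. CDKN1B, a cell cycle inhibitor, gave r = 0.551 (limma adjusted p = 0.187) and the mitophagy receptor BNIP3 r = 0.452 (0.306). IRS2 gave 0.439, which was 0.010 without fetuses 274 and 297. The same list had medians of 0.19 with TRIM63 (0.09 over all genes), -0.10 with FOXO1 (0.16) and 0.16 with FOXO3 (0.05). GABARAPL1, an autophagosome protein, was at r = 0.481 with FOXO3 (limma adjusted p = 0.266). In the insulin and IGF arm, the receptor IGF1R gave r = 0.60 with FBXO32 and missed the call (limma adjusted p = 0.197). AKT1 and AKT2 gave -0.375 and -0.482 with FBXO32 and were not called (0.374 and 0.313). Without fetuses 274 and 297 the r was 0.528 for IGF1R, -0.07 for AKT1 and -0.159 for AKT2.

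Of all 740 genes called with FOXO1, 481 ran against it (4.95% of genes tested) and 259 with it (2.67%). Of the 15 pathway genes called with FOXO1, 14 ran against it. They included CUL1 (-0.656, limma adjusted p = 0.0248), the F-box protein FBXW7 (-0.655, 0.0213), the ligase UBR2 (-0.639), the proteasome subunit PSMD1 (-0.614), the stress protein SESN1 (-0.635), CCNG2 (-0.585), the kinase subunit PIK3CA (-0.558), the glucocorticoid receptor NR3C1 (-0.606), the AMPK subunit PRKAA2 (-0.598) and the M-band protein MYOM1 (-0.664). SMAD3, a signal carrier of myostatin, was the 1 that ran with it (0.571, 0.0489), and r was 0.201 without fetuses 311 and 338. Without the same fetuses, the r of the negative genes just named lay between -0.631 (CUL1) and -0.306 (PIK3CA). With the control covariate none of the 15 remained called, and since no gene was called with FOXO1 without fetus 338, none was then either.

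CBLB and TRIM55 split the pathway lists in both directions. With CBLB 43 list genes ran positively and 47 negatively, where 21.9% and 33.6% of all genes did. With TRIM55 the counts were 44 and 12 (21.3% and 12.7% of all genes). Among the 19 other muscle ubiquitin ligases tested, 16 were called with CBLB (84.2%). CUL3, WWP1, ITCH, FBXO30, FBXW7, UBR2, MDM2 and FBXO9 rose with it, and STUB1, UBR4, HUWE1, ASB2, FBXO31, TRIM32, CBL and SMURF1 fell. In the insulin, IGF and AKT arm, RICTOR, PIK3CA, PIK3R1, RPS6KB1, GSK3B and PIK3CB rose with CBLB, whereas MTOR, RPTOR, TSC2 and AKT1 fell. Of the proteasome and p62 list, 7 of 15 fell with CBLB, PSMD8, PSMB3 and PSMC4 among them, and 4 rose. MSTN (myostatin), the muscle growth inhibitor, rose with CBLB (r = 0.794), XIAP (0.750) and TRIM55 (0.691). With the control covariate, 61 of the 136 genes (44.9%) were called with CBLB, 48 (35.3%) with XIAP and 11 (8.09%) with TRIM55. The shares of all genes in those fits were 35.8%, 31.2% and 4.17%.

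Among the proteins that XIAP is known to bind, the initiator caspase CASP9 gave r = -0.315 with it and was not called (limma adjusted p = 0.221). DIABLO, a mitochondrial protein that frees caspases from XIAP, fell with CBLB (r = -0.559, limma adjusted p = 0.00618) and with XIAP (r = -0.524, 0.0125), beside the 55.5% and 52.6% of all genes called with them in either direction. With the control covariate it was called with CBLB and no longer with XIAP.

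**Figure D5:**
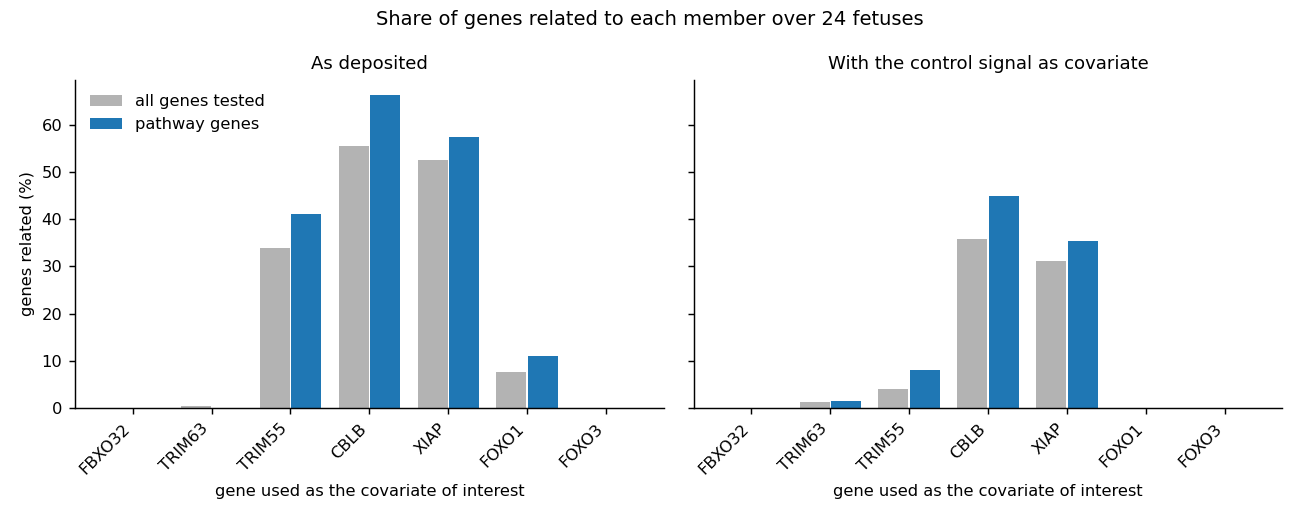
Bars starting at 0 give the percentage of all genes tested (grey) and of the 136 pathway genes (blue) that were called with each gene over 24 fetuses, as deposited on the left and with the control signal as covariate on the right. For CBLB the 66.2% of pathway genes stands beside 55.5% of all genes.

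Markers of the tissue and of other cells were set beside the same 3 genes, and their counts are to be read against the 34.0%, 55.5% and 52.6% of all genes called with TRIM55, CBLB and XIAP. Of the 9 muscle markers 8 (88.9%) were called with XIAP, TTN, NEB and CHRNA1 positively and DES, CKM, TNNC2, ACTA1 and TNNT3 negatively. With CBLB 6 of 9 were called (66.7%) and with TRIM55 3 of 9 (33.3%). Of 6 endothelial markers 4 (66.7%) were called with each of the 3 genes, EMCN positively and CLDN5, VWF and CDH5 negatively, whereas KDR and TEK were not called. Of 7 fibroblast and tendon markers 3 (42.9%) were called with CBLB and with XIAP. LUM, DCN and PDGFRA were the positive ones, and COL1A1, COL3A1, TNMD and FMOD were not called. Of 5 adipocyte markers 2 (40.0%) were called with CBLB and with XIAP, FABP4 and ADIPOQ negatively, and PLIN1, LPL and PPARG were not. The fibroblast and adipocyte shares lay below those of all genes called in either direction. Each list ran in a single direction, however, and with CBLB 21.9% of all genes were called positively and 33.6% negatively. Set against their own direction, both shares with CBLB lay above that of all genes, on 7 and 5 markers. With FOXO1 2 of 6 endothelial markers (33.3%, EMCN and TEK) were called, both negatively, where 4.95% of all genes were called negatively. Without fetus 338, on ranks, with the mean of its probe sets or with the control covariate, no gene was called with FOXO1. With FBXO32, TRIM63 and FOXO3 no marker was called. The part of other cell types in these relations was not tested.

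Single fetuses held the ends of several genes in the representative probe sets. Fetus 338 was among the 3 highest in TRIM55, CBLB and XIAP and among the 3 lowest in FOXO1 and FOXO3. Fetus 274 was among the 3 highest in FBXO32, XIAP and FOXO3, and fetus 360 in FBXO32, TRIM55 and CBLB. Fetus 283 was among the 3 lowest in TRIM55, CBLB and XIAP, and fetus 340 in TRIM63, TRIM55 and FOXO3. No fetus was among the 3 highest, or among the 3 lowest, in both FBXO32 and TRIM63 except 376, which was low in both.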

How the data were processed

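LDM RNA of 24 fetuses was hybridized to 24 arrays. By the study's methods, the authors normalized with Expression Console by RMA (robust multichip average), and the deposited values are its log2 signals, 1 for each probe set of each array. RMA gives all arrays 1 common distribution, so differences in overall brightness are lost and unmoved probe sets can be displaced. Per the labels, GCOS 1.1.1 was also used. No coordinates are given, because no source used here names the genome build of the array. The platform annotation named 26426 of the 47845 probe sets, 123 were controls and 21296 stayed unnamed, and 325 symbols were updated through RefSeq synonyms of Sscrofa11.1.

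The filter left 9710 genes. Limma 3.58.1 (R 4.3.3) was fitted on all of them with 1 gene, or the control mean, as a continuous covariate, and tested on simulated data. Permutation tests were 2-sided with 100000 resamples. Arrays carry no read depth, and their number limits the precision. The members, lists and alternatives were chosen with earlier results of these data known. Genes named were the members, the 3 nearest at either end, and up to 2 per pathway list called with FBXO32, TRIM63, FOXO1 or FOXO3. Other pathway and marker genes were named after their values were seen. Weight group, sex and dam, which the study lists by fetus and fitted, are not in the labels and entered no test, so each r and p mixes differences between weight groups with covariation among fetuses.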

Additional observations from a re-analysis of the deposited data

How the results depend on the processing

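The pair CBLB and XIAP was called under all 9 alternatives that kept both genes (r from 0.77 to 0.889). The number of called pairs was 3 and fell to 1 under the stricter filter (15 pairs, since XIAP did not pass it) and to 1 with the control covariate. It rose to 5 without fetuses 376 and 384 and was 3 under the other alternatives. Of the values for pairs that were not called, 174 of 176 kept their side of the threshold. The pathway calls with FBXO32, TRIM63, FOXO1 and FOXO3 numbered 15, all with FOXO1. Such calls numbered 2 with the control covariate, 1 with the mean of probe sets and 11 with no filter. The 2 were TRIM63 with ACVR2B and EIF3F, and the 1 was with FBXO32, so no FOXO1 call was among them. Of the 11, 10 were with FOXO1 and 1 with FBXO32. FOXO1 with the control signal was not called in 3 of 7 alternatives, which included the mean of all background controls (r = 0.465, limma adjusted p = 0.103). FBXO32 with FST was not called on ranks (0.295) or without fetus 274 (0.248). TRIM63 with TMEM183A was not called with no filter (0.0553), and none of its 3 nearest genes was on ranks (0.375 each) or without fetuses 376 and 384 (0.099 to 0.151). The number of genes called with TRIM63 ran from 0 to 143 (arrays centred on their median), with FBXO32 from 0 to 14, with FOXO1 from 0 to 2566, with TRIM55 from 405 to 5230, with CBLB from 3479 to 5848 and with XIAP from 3033 to 5477. The cause of these changes was not tested. No paired analysis was possible because groups were taken only from the labels, which put no fetus in a group or pair; the study's own listing of weight group and dam was not used.

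The median of the background controls ran from 1.77 in the class of 4 G or C bases to 9.71 in that of 24. The base composition of the gene probe sets was not used here, so how much unspecific signal each one holds was not tested.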
